A study of Rattus norvegicus with 6 samples.

Results

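The genes described here are 10 common markers of kidney tubular injury, repair and leukocyte adhesion: Havcr1, Lcn2, Spp1, Clu, Vim, Cd44, Vcam1, Icam1, Sox9 and Prom1. They were taken by exact name from a table of 27321 features, and 8 of the 10 had a row. Spp1 and Sox9 had no row of that name and were not analysed here. None of the 7 markers that could be tested passed the threshold between control and STZ rats, and none had an interval that lay wholly above 0. The nearest to passing was Clu, whose mean was 1.81-fold lower in STZ rats.

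RNA came from the IM tip, the deep end of the kidney inner medulla, of male Sprague-Dawley rats aged 3 months and weighing about 150 g. STZ rats received streptozotocin (STZ) by tail vein at 62.5 mg/kg and control rats received vehicle, with 3 libraries in each group. Streptozotocin kills the insulin-producing cells of the pancreas and so causes diabetes. Tissue was taken on day 15 after the injection, and blood glucose, read a day after it, was used to establish diabetes in the study. The labels number the libraries within each group without saying that each came from a separate rat. Thus n counts libraries, and p-values measure only the spread between these libraries, which may be technical. The tissue holds mixed cell types, in which fewer cells of a type and less RNA per cell cannot be told apart.

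Values are normalized counts, the reads of a feature divided by a size factor of its library. The libraries held between 3412311 and 5575171 reads on features, and 1 read weighed from 0.763 to 1.11 normalized counts. By the column headers every control library ran on lane 3, whereas STZ replicates 1 to 3 ran on lanes 7, 6 and 8, and the effect of lane cannot be told apart from that of group. Defining genes of the tissue were present: 9 genes of collecting duct principal cells, the main epithelium of this region, summed to between 45511 and 70717 normalized counts in control and between 56224 and 93311 in STZ libraries.

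When a tubule is injured, its surviving cells lose part of their differentiated state, spread, divide and rebuild the epithelium. During this they make secreted and surface proteins that are scarce in a resting tubule, which is why such transcripts and proteins serve as injury markers. Adhesion molecules on the endothelium and on injured epithelium hold passing leukocytes through integrins, and several of them are switched on by the transcription factor NF-kB. Many of these markers are best known from the cortex and outer medulla, whereas the IM tip consists mainly of collecting ducts, thin limbs, vessels and interstitial cells.

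The promoters of Icam1, Vcam1 and Lcn2 are shown because these markers are classical targets of NF-kB and the ones whose windows held a match to a shortened form of its binding site. Of the 10 symbols, 8 had an entry among the RefSeq promoters of GRCr8, each covering 250 bases before to 50 bases after a gene's start. The pattern searched was GGNNNTTCC on both strands, where N is any base. It occurred in 18.3% of the 33469 promoters of that length, and in 3 of the 8 markers. Capitals mark the matched letters, and each sequence runs 5′ to 3′ on the strand of its gene. The window of Icam1 is chr8:27829595-27829894 on the plus strand, that of Vcam1 is chr2:206742734-206743033 on the minus strand, and that of Lcn2 is chr3:36081731-36082030 on the minus strand.
Icam1: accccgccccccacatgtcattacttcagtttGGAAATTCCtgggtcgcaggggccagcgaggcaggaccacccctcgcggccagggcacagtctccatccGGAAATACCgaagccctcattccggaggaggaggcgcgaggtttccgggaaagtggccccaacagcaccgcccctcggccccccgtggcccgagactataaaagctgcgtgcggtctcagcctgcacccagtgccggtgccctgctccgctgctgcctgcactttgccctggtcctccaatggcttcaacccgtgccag
Vcam1: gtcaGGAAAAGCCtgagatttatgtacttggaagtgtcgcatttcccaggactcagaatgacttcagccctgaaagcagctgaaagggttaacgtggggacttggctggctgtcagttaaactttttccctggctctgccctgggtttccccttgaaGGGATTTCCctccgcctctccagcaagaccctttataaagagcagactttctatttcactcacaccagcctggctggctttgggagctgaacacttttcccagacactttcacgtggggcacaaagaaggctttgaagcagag
Lcn2: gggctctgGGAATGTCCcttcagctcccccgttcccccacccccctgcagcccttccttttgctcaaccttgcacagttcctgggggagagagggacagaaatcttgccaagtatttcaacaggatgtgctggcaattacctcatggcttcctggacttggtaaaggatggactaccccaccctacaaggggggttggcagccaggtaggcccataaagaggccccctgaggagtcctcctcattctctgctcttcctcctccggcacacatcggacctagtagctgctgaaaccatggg

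The match GGAAATTCC of Icam1 began 218 bases before the start and fits the pattern on both strands, and a second match, GGAAATACC, began 149 bases before it. In Vcam1 the matches GGAAAAGCC and GGGATTTCC began 246 and 93 bases before the start. Lcn2 held GGAATGTCC, which began 242 bases before the start. A match to so short a pattern is a description of the letters and not of binding.

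The comparison of control with STZ rats asks whether these markers differed in the diabetic IM tip. It was made with limma on log2(normalized count + 1) over the 13486 features that averaged 5 or more normalized counts, with Benjamini-Hochberg adjustment of p over all of them. Fold changes are STZ over control on that scale, with 95% intervals from the same fit that are not adjusted for the number of features. By limma, 0 of the 7 tested markers had an adjusted p under 0.05, against 2.1% of all features tested. At an unadjusted p under 0.05 there were 2 markers, Clu and Icam1, against 14.7% of all features. The STZ and control values did not overlap in 3 of the 7 (Clu, Icam1 and Prom1), against 20.3% of all features.

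The log2 fold change was above 0 in 3 markers and below 0 in 4. Their median was −0.15, beside 0.01 over all features tested, whose middle 50% ran from −0.28 to 0.30. For 6 of the 7 the upper bound of the interval lay under 1, that is, under a doubling. The exception was Lcn2. On the other side the intervals of Clu, Icam1 and Vcam1 reached below −1, so 3 of the 7 lay within a log2 of 1 either way.

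**Figure D1:**
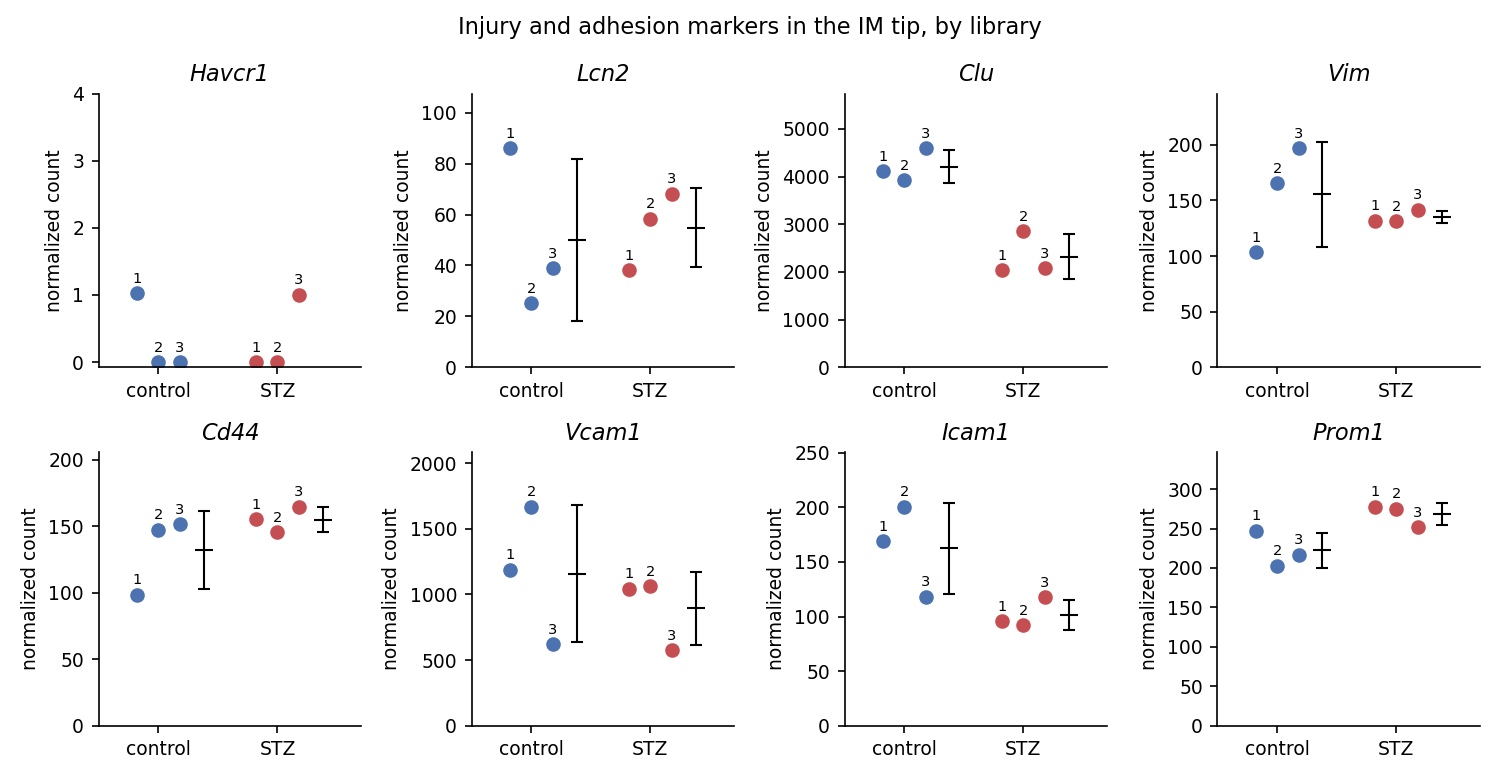
Normalized counts of the 8 markers with a row, by library, on linear axes. Blue points are control and red points STZ libraries, numbered by replicate, and black marks give the mean and SD (n = 3) except for Havcr1, which never exceeded 1 read. Control and STZ points do not overlap for Clu, Icam1 and Prom1.

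**Figure D2:**
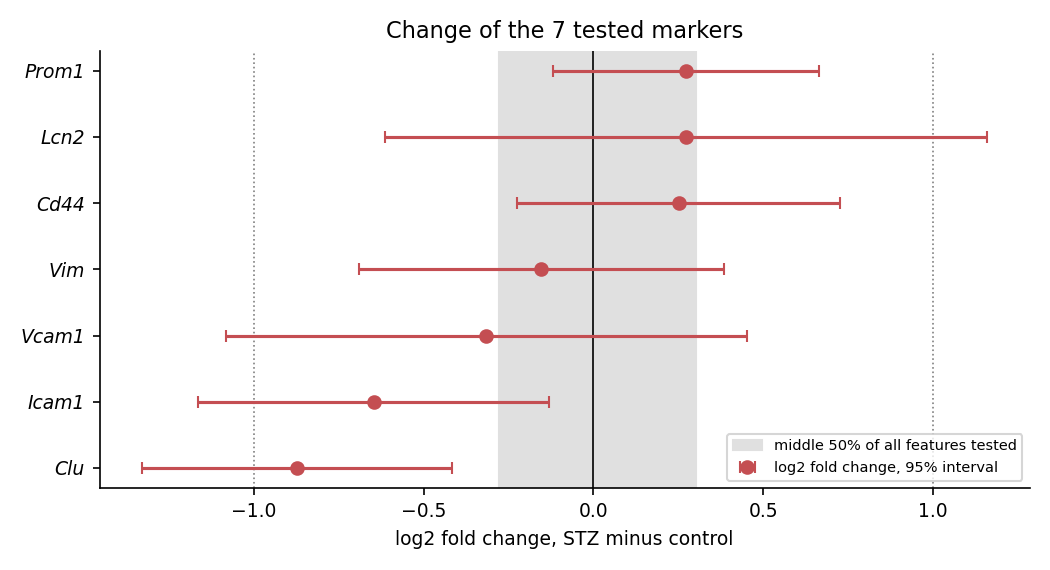
Log2 fold change (STZ minus control) of the 7 tested markers on the x axis, with unadjusted 95% intervals as bars. The grey band spans the middle 50% of all features, from −0.28 to 0.30, and dotted lines stand at −1 and 1. Only the intervals of Clu and Icam1 leave out 0. Only that of Lcn2 passes 1, and those of Clu, Icam1 and Vcam1 pass −1.

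Havcr1 encodes kidney injury molecule 1, a membrane receptor of injured proximal tubule cells that takes up dying cells. Its locus on rn4 is chromosome 10, 31834518 to 31858017. It had 1 read in control replicate 1, 1 read in STZ replicate 3 and 0 reads in the other 4 libraries. No library thus exceeded the floor of 3 reads, which corresponds to between 2.29 and 3.34 normalized counts per library, so no fold change was computed. A Havcr1 transcript below that floor was not detectable at this depth in either group. The 9 proximal tubule genes with a row summed to between 273 and 518 normalized counts in control and 116 to 171 in STZ libraries. Of the 7 tested 1 fell, Kap (kidney androgen regulated protein), beside 0.927% of all features. Much of the difference between the sums was Kap, with 174 to 283 normalized counts in control and 20.8 to 65.0 in STZ libraries. The log2 fold changes of the 7 ran from −2.31 for Kap to 0.29 for Lrp2, with a median of −0.44. The part of proximal tubule cells in the result for Havcr1 was not tested.

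Lcn2 encodes lipocalin 2 (NGAL), a secreted protein that withholds iron from bacteria by binding their siderophores and that is measured in urine as an early injury marker. On chromosome 3 of rn4, 11511402 to 11514809, its normalized counts were 86.1, 25.2 and 39.0 in controls 1 to 3, against 38.1, 58.4 and 68.3 in STZ 1 to 3. The highest and the lowest of the 6 values were both control libraries, so the STZ values lay inside the control range. These values rested on between 33 and 84 reads per library. The means were 50.1 ± 31.96 (SD) in controls and 54.9 ± 15.4 in STZ rats, with n = 3 per group, a log2 fold change of 0.27 with a 95% interval of −0.615 to 1.161 (adjusted p = 0.862 by limma). This is the widest interval of the 7 markers, and it holds both no change and a doubling. Without control replicate 2 the log2 fold change was −0.12, and without control replicate 1 it was 0.75.

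Clu encodes clusterin, a secreted chaperone that binds misfolded proteins and is among the transcripts that injured tubules raise. On chromosome 15 of rn4, 45392613 to 45405323, its normalized counts were 4111, 3918 and 4594 in controls 1 to 3, against 2029, 2856 and 2074 in STZ 1 to 3. The groups did not overlap, and the gap between the lowest control and the highest STZ library was 1061 normalized counts. The mean was 4207 ± 348 (SD) in controls and 2320 ± 465 in STZ rats, with n = 3 per group, 44.9% less. The exact permutation test of the 3 against 3 libraries gave p = 0.1 (two-sided), the smallest that the design allows. By limma the log2 fold change was −0.87 (SE 0.21, 95% interval −1.33 to −0.42), and its adjusted p of 0.059 stood just above the threshold. Over 16 alternatives the adjusted p ran from 0.0319 to 0.213 and was under 0.05 in 4, and the log2 fold change stayed between −1.03 and −0.79. Clusterin was thus lower in every STZ library than in every control library, and whether it passed depended on the setting.

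Vim encodes vimentin, the intermediate filament of mesenchymal cells, which epithelial cells take up when they dedifferentiate. On chromosome 17 of rn4, 87847239 to 87855757, its normalized counts were 104, 166 and 197 in controls 1 to 3, against 132, 132 and 142 in STZ 1 to 3. All 3 STZ values lay inside the control range and close to each other, with a coefficient of variation of 4.21% against 30.6% in control. The log2 fold change was −0.15 (95% interval −0.69 to 0.39, adjusted p = 0.874 by limma). Its sign rested on control replicate 3, without which it was 0.04.

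Of 9 tested genes of interstitial fibroblasts and pericytes, cells that carry vimentin, 2 rose in STZ rats, beside 1.17% of all features called higher. Pdgfra, a growth factor receptor of fibroblasts, went from 535 ± 134 to 1073 ± 126 normalized counts, and Tagln, a smooth muscle actin-binding protein, from 222 ± 36.9 to 558 ± 22.6 (SD, n = 3 each, adjusted p = 0.0364 and 0.00576 by limma). The 10 genes with a row summed to between 7996 and 9583 normalized counts in control and between 5575 and 11737 in STZ libraries. The part of these cells in the values of Vim was not tested.

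Cd44 encodes the surface receptor for hyaluronan, which also binds osteopontin, the product of Spp1. On chromosome 3 of rn4, 88022982 to 88110352, its normalized counts were 98.4, 147 and 151 in controls 1 to 3, against 155, 145 and 165 in STZ 1 to 3. Control replicate 1 was low and the other 5 libraries lay between 145 and 165. The log2 fold change was 0.25 (95% interval −0.23 to 0.73, adjusted p = 0.69 by limma), and it was 0.05 without control replicate 1.

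Prom1 encodes prominin 1 (CD133), a glycoprotein of membrane protrusions used as a marker of progenitor-like tubule cells. On chromosome 14 of rn4, 72122985 to 72230447, its normalized counts were 247, 203 and 217 in controls 1 to 3, against 278, 275 and 252 in STZ 1 to 3. Every STZ value was above every control value, with a gap of 4.90 normalized counts between STZ replicate 3 and control replicate 1. The mean was 222 ± 22.6 (SD) in controls and 268 ± 14.1 in STZ rats, with n = 3 per group, 20.6% more. The exact permutation test gave p = 0.1 (two-sided), its smallest value, and the log2 fold change was 0.27 (SE 0.18, 95% interval −0.12 to 0.66, adjusted p = 0.552 by limma). It stayed between 0.21 and 0.35 over 16 alternatives, which reuse the same libraries. The interval of Prom1 lay within a log2 of 1 either way, but it measures only the spread between these libraries.

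Vcam1 encodes the vascular cell adhesion molecule that holds monocytes and lymphocytes through the integrin of Itga4 and Itgb1. On chromosome 2 of rn4, 212277647 to 212297394, its normalized counts were 1188, 1669 and 621 in controls 1 to 3, against 1044, 1065 and 575 in STZ 1 to 3. In each group replicate 3 was the lowest library, and the ranges overlapped. The mean was 1159 ± 524 (SD) in controls and 895 ± 277 in STZ rats, with n = 3 per group, with a log2 fold change of −0.31 (95% interval −1.08 to 0.45, adjusted p = 0.787 by limma). Without control replicate 2, the highest library, the log2 fold change was 0.004, and without control replicate 3 it was −0.71.

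Icam1 encodes the intercellular adhesion molecule bound by the leukocyte integrins of Itgb2 with Itgal or Itgam. On chromosome 8 of rn4, 20040164 to 20051949, its normalized counts were 169, 201 and 118.0 in controls 1 to 3, against 95.6, 92.0 and 117.5 in STZ 1 to 3. The groups did not overlap, but control replicate 3 and STZ replicate 3 were only 0.535 normalized counts apart, less than the worth of a single read. The mean was 163 ± 41.7 (SD) in controls and 102 ± 13.8 in STZ rats, with n = 3 per group, 37.5% less. The exact permutation test gave p = 0.1 (two-sided), the smallest possible. By limma the log2 fold change was −0.65 (SE 0.24, 95% interval −1.16 to −0.13) and the adjusted p was 0.212. Over 16 alternatives the log2 fold change stayed below 0, from −0.86 to −0.48, while its adjusted p ran from 0.0681 to 0.564.

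Both adhesion markers are made by endothelium, among other cells, and genes of that cell type moved in opposite directions. Of 8 tested, 2 fell and 1 rose, beside 0.927% and 1.17% of all features. Emcn and Plvap, which encode surface proteins of capillary and fenestrated endothelium, fell, from 5510 ± 892 to 2095 ± 132 and from 279 ± 44.2 to 138 ± 16.4 normalized counts (SD, n = 3 each, adjusted p = 0.00679 and 0.029 by limma). Vwf, the clotting factor carrier stored in endothelium of larger vessels, rose from 47.7 ± 19.3 to 191 ± 76.4 (adjusted p = 0.0264 by limma). The 8 genes together summed to between 7120 and 9211 normalized counts in control and between 4008 and 4389 in STZ libraries. Most of that difference was Emcn, with 4827 to 6520 normalized counts in control and 2003 to 2246 in STZ libraries. The genes that did not pass went both ways. Log2 fold changes were −0.555 for Cdh5 and −0.611 for Tek, against 0.947 for Flt1, 0.546 for Tie1 and 0.045 for Pecam1. The part of the endothelium in the values of Icam1 and Vcam1 was not tested.

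Other leukocyte and vascular adhesion molecules were described from a list of 28, of which 22 had a row and 20 were tested. By limma 0 of the 20 passed in either direction, beside 2.1% of all features, and 4 had an unadjusted p under 0.05, beside 14.7% of all features. The median log2 fold change was −0.05, and the groups did not overlap in 5 of the 20, beside 20.3% of all features. Cd9, a tetraspanin that gathers adhesion molecules and integrins in the membrane and the member with the most reads, had 15966, 11553 and 11093 normalized counts in controls 1 to 3, against 6912, 6684 and 5836 in STZ 1 to 3, without overlap (log2 fold change −0.97, adjusted p = 0.0614 by limma). Icam2, the constitutive endothelial relative of Icam1, had 95.3, 49.6 and 50.1 normalized counts in controls 1 to 3, against 100, 52.4 and 79.3 in STZ 1 to 3, with groups that overlapped (log2 fold change 0.27, adjusted p = 0.81).

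Partners of the markers were receptors, integrins, membrane linkers and enzymes of hyaluronan. Of 30 listed genes 24 had a row and 18 were tested, and by limma 0 passed and 4 had an unadjusted p under 0.05, against the same 2.1% and 14.7% of all features. The median log2 fold change was 0.10. Itgb1, the common beta integrin chain and the member with the most reads, had between 980 and 1327 normalized counts in control and between 981 and 1094 in STZ libraries (log2 fold change −0.08, 95% interval −0.49 to 0.33, adjusted p = 0.922). Slc22a17, a receptor for lipocalin 2, had 110, 124 and 114 normalized counts in controls 1 to 3, against 53.9, 81.1 and 101 in STZ 1 to 3, without overlap (log2 fold change −0.59, adjusted p = 0.287).

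Msn and Ezr encode moesin and ezrin, which tie Cd44 and the ICAMs to actin. Msn had 714, 594 and 629 normalized counts in controls 1 to 3, against 482, 436 and 316 in STZ 1 to 3, again without overlap (log2 fold change −0.67, adjusted p = 0.134). Slc22a17 and Msn were the only 2 of the 18 tested partners whose groups did not overlap, beside 20.3% of all features. Ezr had 260, 137 and 250 normalized counts in controls 1 to 3, against 344, 366 and 257 in STZ 1 to 3, with groups that overlapped (log2 fold change 0.62, adjusted p = 0.30). Has2, which makes the hyaluronan that Cd44 binds, had a log2 fold change of −0.46 (95% interval −1.21 to 0.29, adjusted p = 0.617).

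On the leukocyte side of the pairs, Itgb2 rested on between 5 and 33 reads per library and Itga4 on between 6 and 25. Itgb2, the leukocyte beta chain that binds Icam1, had 5.13, 25.2 and 18.9 normalized counts in controls 1 to 3, against 18.6, 19.8 and 28.1 in STZ 1 to 3. Itga4, which binds Vcam1, had between 6.15 and 27.8 in control and between 5.57 and 11.04 in STZ libraries. Neither passed (adjusted p = 0.66 and 0.906 by limma), and of 16 tested genes of macrophages and other leukocytes 0 passed, with 1 at an unadjusted p under 0.05, beside 14.7% of all features. Their 17 rows summed to between 1558 and 5165 normalized counts in control and between 3048 and 4898 in STZ libraries. By limma 0 of 6 tested thin limb, 0 of 9 principal cell, 0 of 1 neutrophil and 0 of 3 blood and platelet genes passed, whereas 5 of 7 intercalated cell genes were lower and 2 of 5 urothelial genes higher in STZ rats, beside 0.927% of all features called lower and 1.17% called higher. Of 7 neutrophil genes with a row, Camp, Mpo and Np4 never exceeded the floor of 3 reads in any library. S100a9, the 1 that was tested, had between 14.5 and 28.7 normalized counts in control and between 17.6 and 41.2 in STZ libraries (log2 fold change 0.38, adjusted p = 0.752 by limma).

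Genes of the NF-kB pathway, whose binding pattern was searched in the promoters printed above, were read from a list of 24, of which 18 had a row and 15 were tested. By limma 0 passed and 1 had an unadjusted p under 0.05, against 2.1% and 14.7% of all features, and the median log2 fold change was 0.02. Nfkbia, the inhibitor that NF-kB itself induces and the member with the most reads, had 739, 690 and 486 normalized counts in controls 1 to 3, against 1103, 921 and 452 in STZ 1 to 3. Its highest and lowest libraries were both STZ (log2 fold change 0.30, 95% interval −0.38 to 0.98, adjusted p = 0.766).

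Among secreted injury and urinary markers some fell in STZ rats. Of 30 listed, 25 had a row and 19 were tested, and 5 fell and 0 rose by limma, beside 0.927% of all features that were called lower. The median log2 fold change of the 19 was −0.49. Among the 5 were Umod, Egf, Tff3 and Cxcl10. The control and STZ values did not overlap in 12 of the 19, these 4 included, beside 20.3% of all features. The list was chosen with earlier results of these data known. The study itself names Umod, Egf and Tff3 among its most down-regulated genes, so these counts are no independent evidence. Whether this list differs from the 10 markers was not tested.

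Umod, the urinary protein uromodulin of the thick ascending limb, fell from 593 ± 331 to 69.8 ± 17.6 normalized counts (SD, n = 3 each, log2 fold change −2.93, adjusted p = 0.00353 by limma). Egf, the epidermal growth factor made in the same segment, fell from 203 ± 44.1 to 48.0 ± 11.2 (−2.06, adjusted p = 0.0022), and Tff3, a trefoil peptide of mucosal repair, from 206 ± 49.1 to 39.2 ± 18.4 (−2.45, adjusted p = 0.00548). Umod and Egf serve as markers through a decline rather than a rise. The part of tubule damage in their values here was not tested. The 5 thick limb genes with a row, Umod and Egf among them, summed to between 1298 and 2065 normalized counts in control and 456 to 924 in STZ libraries. Of the other genes in that sum, Slc12a1 was lower (log2 fold change −1.47, adjusted p = 0.0732 by limma). Cldn19 went the other way and was higher in all 3 STZ libraries (0.46, adjusted p = 0.342 by limma). The part of the thick limb, which lies outside the IM tip, in these results was not tested.

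Cxcl10, a chemokine induced by interferon, fell from 857 ± 498 to 258 ± 88.4 normalized counts (SD, n = 3 each, log2 fold change −1.64, adjusted p = 0.0446 by limma). Under 16 alternatives Umod, Egf and Tff3 each kept an adjusted p under 0.05 in 14 and Cxcl10 in 8. The adjusted p of Cxcl10 by limma was 0.109, 0.0574 and 0.105 without STZ replicate 1, 2 or 3, and 0.134 without control replicate 2. Ccl2, the monocyte chemokine with the most reads in the list, had 16577, 17699 and 10535 normalized counts in controls 1 to 3, against 7603, 7614 and 1867 in STZ 1 to 3, without overlap, and did not pass (−1.61, adjusted p = 0.124). Lgals3 and Wfdc2, secreted proteins that injured and fibrotic kidney releases, were higher in all 3 STZ libraries and did not pass either (log2 fold changes 0.89 and 0.93, adjusted p = 0.186 and 0.0929).

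Of 49 genes of epithelial stress, dedifferentiation and repair, 42 had a row and 35 were tested. By limma 2 fell and 0 rose, beside 0.927% of all features called lower and 1.17% called higher, and the median log2 fold change was 0.00. Klf4, a transcription factor of terminal epithelial differentiation, fell from 98.9 ± 12.1 to 31.3 ± 7.24 normalized counts (SD, n = 3 each, log2 fold change −1.65, adjusted p = 0.0084). Plat, tissue plasminogen activator, fell from 11675 ± 2541 to 4341 ± 418 (−1.41, adjusted p = 0.0124). Klf4 kept an adjusted p under 0.05 in 14 of 16 alternatives and Plat in 12, with an adjusted p of 0.0517 for Plat without STZ replicate 2 and of 0.0795 without control replicate 2. S100a6, a calcium-binding protein of proliferating cells and the member with the most reads, had between 10728 and 24257 normalized counts in control and between 10964 and 13959 in STZ libraries (−0.45, adjusted p = 0.583).

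Krt8 and Pax8 come from the same list. Krt8, the keratin of simple epithelia, had 349, 299 and 306 normalized counts in controls 1 to 3, against 525, 686 and 405 in STZ 1 to 3 (log2 fold change 0.73, adjusted p = 0.122 by limma), and Pax8, a transcription factor of tubule identity and repair, had 309, 353 and 242 against 661, 535 and 407 (0.81, adjusted p = 0.102). Both were higher in all 3 STZ libraries than in any control library. The groups did not overlap in 8 of the 35 tested genes of this list, beside 20.3% of all features. These 8 went in both directions, with Klf4 and Plat among those lower in STZ rats. In rows of their own name, Cdkn1a, Lgr5, Sox11, Sox4 and Tgfb1 never exceeded the floor of 3 reads in any library. Rows that merge several genes were searched for the markers and not for genes of the lists.

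**Figure D3:**
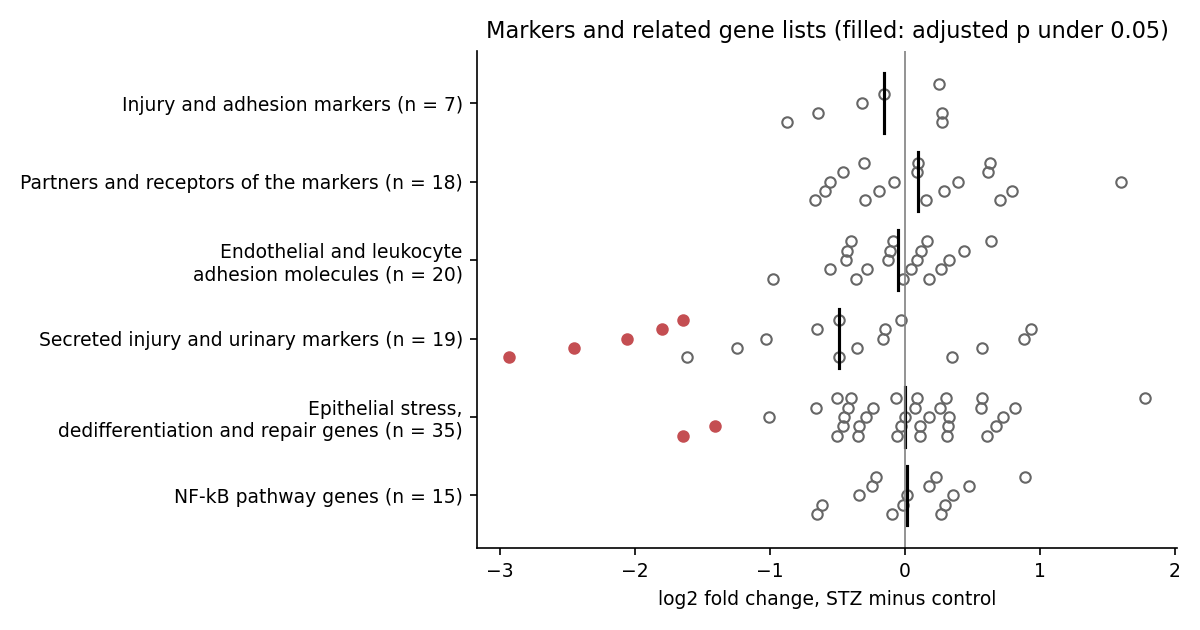
Log2 fold change (STZ minus control) of each tested gene, 1 point per gene, for the 7 tested markers and 5 related lists, with black bars at the medians. Filled points passed an adjusted p under 0.05 by limma: 5 secreted markers and 2 repair genes, all lower in STZ rats.

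Within a group the markers varied to different degrees. The coefficient of variation in control libraries ran from 8.28% for Clu to 63.8% for Lcn2, and in STZ libraries from 4.21% for Vim to 30.9% for Vcam1. In 6 of the 7 markers it was higher in control than in STZ libraries, beside 57.2% of all features tested, and Clu was the exception with 20.1% in STZ libraries. No library was at the extreme throughout: control replicate 1 held the highest value of Lcn2 and the lowest of Vim and Cd44, and control replicate 2 the highest of Vcam1 and Icam1 and the lowest of Lcn2 and Prom1.

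Leaving out each library in turn changed the sign of 3 markers. These were Lcn2 without control replicate 2 (−0.12), Vim without control replicate 3 (0.04) and Vcam1 without control replicate 2 (0.004). For Clu, Icam1, Cd44 and Prom1 the sign held in all 6 of these fits, and 0 of the 7 markers passed in any of them by limma, where Clu had an adjusted p between 0.0851 and 0.212.

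**Figure D4:**
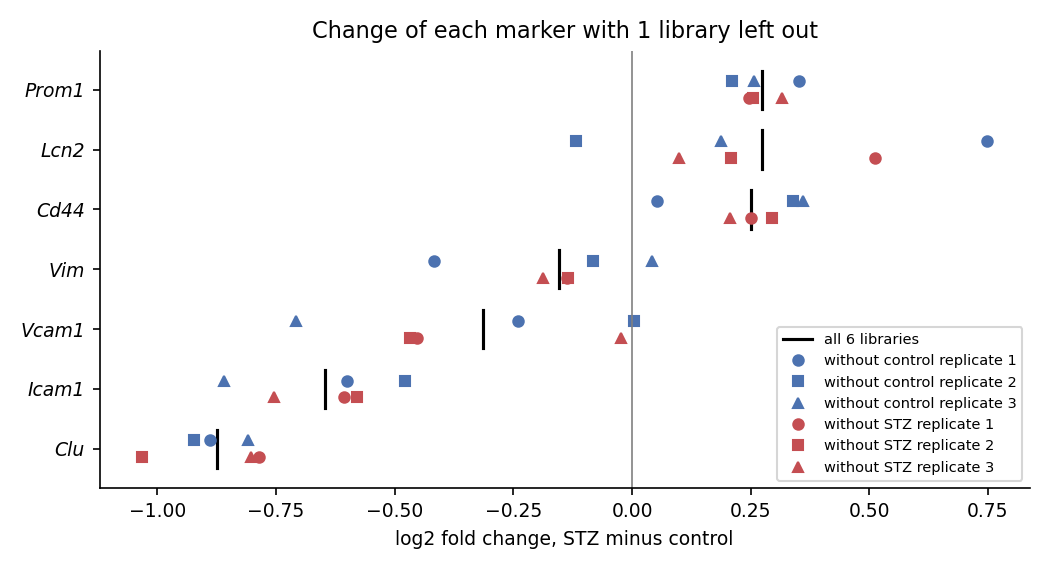
Log2 fold change (STZ minus control) of the 7 tested markers with 1 library left out, on the x axis. Blue symbols leave out a control and red symbols an STZ library, the shape gives the replicate, and black bars give the value with all 6. Clu runs from −1.03 to −0.79, and Lcn2 from −0.12 to 0.75.

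Few reads were counted in rows that markers share with overlapping genes. How reads of shared sequence were counted is not known, so their effect on the values was not tested. Rows that merged a marker with an overlapping gene existed for Lcn2, Clu and Icam1 and held 0, 1 and 2 reads in all 6 libraries together, and no other feature overlapped the locus of any of the 8 markers. The reads behind a marker numbered 20412 over the 6 libraries for Clu, 6679 for Vcam1, 1530 for Prom1, 911 for Vim, 903 for Cd44, 847 for Icam1 and 320 for Lcn2. These numbers set the counting error and not the order of expression, since reads were not divided by transcript length.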

How the data were processed

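RNA-seq libraries of the IM tip, 3 from control and 3 from STZ rats, were analysed. The authors aligned reads to rn4 with STAR 2.3.1t, counted uniquely mapped reads per gene of the Ensembl annotation and normalized them with DESeq 1.16.0. Neither the counting program nor the strand setting is given in the sources used here. The deposited signal is the normalized count, and a single table holds all libraries. Within each library 100.0% of the values above 0 were whole multiples of a single step (tolerance 0.01), from which reads were derived for depth and for the floor of 3 reads. The floor covers counting error only, since the cDNA was amplified by PCR.

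Features with a mean of at least 5 were moved to the scale log2(normalized count + 1) and compared between groups by limma 3.58.1 (R 4.3.3), whose prior variance followed mean intensity. The Benjamini-Hochberg threshold was 0.05. Single markers were also compared with two-sided exact permutation tests. The method was tested on simulated data whose changes were larger than that of any marker. That test does not show whether changes of the markers' size would be found. Other steps ran in Python 3.11.15 with scipy 1.17.1.

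The markers and the 16 gene lists (5 of pathways, 11 of cell types) were chosen with earlier results of these data known. All 10 markers are named, with pathway genes that passed and the member of each pathway list with the most reads. The values of 1 pathway gene that passed are not reported here. Slc22a17, Msn, Ezr, Has2, Itgb2, Itga4, Icam2, Lgals3, Wfdc2, Krt8, Pax8, all named cell type genes and list members at the floor were named after their values were seen. The 16 alternatives changed the pseudocount (0.5, 5), the minimum mean (1, 20, none), the scaling (to equal totals or by quantiles), the moderation (no trend, robust) or the samples (each left out), or added the replicate number as a block.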

Additional observations from a re-analysis of the deposited data

How the results depend on the processing

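Features called numbered 283 with all settings as reported, 31 without the intensity trend, 98 with no filter, 501 with quantile normalization and between 88 and 352 with 1 library left out (88 without STZ replicate 2, 101 without control replicate 2, 141 without STZ replicate 1, 163 without STZ replicate 3 and 182 without control replicate 1). The share of these calls that were higher in STZ rats was 55.8% as reported, 67.7% without the trend and 43.9% with no filter. The number of the 7 tested markers called was 0 as reported and 1, which was Clu, with equal library totals, a minimum mean of 20 and quantile normalization, and between 0 and 0 with 1 library left out. The pathway genes called numbered 7 of 107 as reported, 0 without the trend, 0 with no filter, 12 with quantile normalization and between 4 and 8 with 1 library left out (4 without STZ replicate 2 and 4 without control replicate 2).
The log2 fold changes of Lcn2, Vim and Vcam1 changed sign only on leaving out a library, to −0.118, 0.043 and 0.004, and ran from −0.118 to 0.749, from −0.418 to 0.043 and from −0.708 to 0.004. The cause was not tested. With the replicate number as a block, 561 features, 1 marker (Clu, adjusted p = 0.0319 by limma) and 10 pathway genes were called. Deviations from group means correlated between same-numbered libraries with r = 0.395, −0.061 and 0.323 across 9315 features, which are not independent, so the numbers were not taken to pair the rats. For STZ replicate 2 the highest r was with control replicate 3 (0.22). The count tests edgeR and DESeq2, listed among the alternatives, were not run, since the step of STZ replicates 2 and 3 lay too close to 1 for the criterion on recovered reads. Havcr1, with at most 1 read in a library, could not be compared at this depth.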
